A study of Mus musculus with 4 samples.

Results

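Secreted growth factors that act on vessels, epithelium and fibroblasts were followed in BALF cells, which lavage washes out of the lung's airspaces, from bleomycin-administered mice. The members were Vegfa, Vegfb, Vegfc and Pgf of the VEGF family, Hgf, the EGF-like ligands Hbegf, Areg and Ereg, and Fgf1 and Igf1. All non-control probes whose accession mapped to one of these 10 gene symbols were taken, which gave 10 of the 20832 genes and 15 of the 39429 probes on the array: 4 for Igf1, 2 each for Vegfa and Fgf1, and 1 for each of the other genes. The rule takes probes by gene name, and the genes were put together with earlier results of these arrays known.

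The study asked how loss of S1pr2, a receptor for sphingosine-1-phosphate, changes mRNA levels in BALF cells in a mouse model of lung fibrosis. RNA was measured on 4 one-color arrays, 2 of wild-type and 2 of S1pr2-/- mice, and every mouse had received bleomycin, a drug that injures the lung, at 0.035 U/g by intraperitoneal injection given repeatedly each week. Cells were taken on day 22, and no saline-administered mice were on these arrays, so the values compare genotypes under bleomycin and give no effect of bleomycin itself. The S1pr2-/- animals carry a germline null allele in all cells, on a mixed 129Ola and C57BL/6J background, with wild-type littermates as controls. The methods call the RNA samples independent, and whether several mice were pooled for an array is not given in the sources used here, so p-values measure the spread between these samples only.

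The labels call the cells alveolar macrophages, and all 10 of 10 alveolar macrophage markers examined, among them Siglecf, Marco, Pparg and Chil3, were well above background on both genotypes. The arrays were similar in brightness, with 67.46% to 72.14% of probes well above background and no saturated spots. The S1pr2 probe went against the label: its scaled signal was 0.915 and 0.896 in wild-type and 6.35 and 5.83 in those labelled S1pr2-/-, which is a log2 fold change of 2.75 (SE 0.0724, limma adjusted p = 0.332). Whether this probe lies outside the deleted sequence was not tested, and exchanged labels cannot be told apart from that here. Every direction given here follows the labels and would turn if they were exchanged. Markers of eosinophils, granulocytes of type 2 inflammation, also separated the groups. Their summed scaled signal was 2.54 and 7.96 in wild-type and 0.123 and 0.211 in the samples labelled S1pr2-/-. All 5 of the 5 eosinophil genes tested (Prg2, Epx, Ccr3, Il5ra and Gata1) were lower on both of the latter, where 21.8% of all probes tested were. Epx was well above background on only 1 of the arrays labelled S1pr2-/-. It was tested only because of wild-type, so its difference is a bound.

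Growth factors of these families are made as soluble or membrane-anchored proteins and act on receptor tyrosine kinases of neighbouring cells. VEGF ligands act on endothelium, HGF acts through Met on epithelium, and EGF-like ligands are cut from the membrane by ADAM proteases before they bind the EGF receptor or its relatives. IGF-1 made by lung macrophages is known as a growth and survival factor for fibroblasts. Vegfa is a textbook target of the hypoxia-inducible factors, and Areg, Ereg and Hbegf are typical early-response genes of activated myeloid cells.

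The start-site regions are shown for 4 members, because Areg and Vegfa were lower on both arrays labelled S1pr2-/- while Vegfb and Igf1 were not. RefSeq sequences on GRCm38.p6 were matched for 7 of the 10 genes, and each stretch printed is the 250 bases before an annotated start, 5′ to 3′. Areg lies at chr5:91139349-91139598, plus strand, Vegfa at chr17:46032378-46032627, minus strand, Vegfb at chr19:6987652-6987901, minus strand and Igf1 at chr10:87860861-87861110, plus strand. Capitals mark matches on either strand to TGACGTCA (the cyclic AMP response element), TGACTCA (AP-1), ACGTG (the core of the hypoxia response element), GGGCGG (Sp1) and TATAAA (the TATA box).
Areg: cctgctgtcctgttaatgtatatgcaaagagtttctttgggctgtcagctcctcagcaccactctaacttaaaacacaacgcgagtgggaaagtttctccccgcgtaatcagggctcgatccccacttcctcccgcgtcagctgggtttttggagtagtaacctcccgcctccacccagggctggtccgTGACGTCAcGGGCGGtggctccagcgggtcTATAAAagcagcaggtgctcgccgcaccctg
Vegfa: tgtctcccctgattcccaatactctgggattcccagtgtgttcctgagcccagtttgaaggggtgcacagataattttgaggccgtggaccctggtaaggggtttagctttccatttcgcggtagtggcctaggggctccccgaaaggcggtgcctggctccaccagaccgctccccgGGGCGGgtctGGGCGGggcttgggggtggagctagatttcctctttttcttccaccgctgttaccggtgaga
Vegfb: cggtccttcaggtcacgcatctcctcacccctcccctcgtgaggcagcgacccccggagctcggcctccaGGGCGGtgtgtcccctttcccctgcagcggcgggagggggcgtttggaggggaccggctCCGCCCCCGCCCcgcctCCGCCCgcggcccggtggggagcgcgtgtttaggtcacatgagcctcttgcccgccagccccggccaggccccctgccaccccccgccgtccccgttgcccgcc
Igf1: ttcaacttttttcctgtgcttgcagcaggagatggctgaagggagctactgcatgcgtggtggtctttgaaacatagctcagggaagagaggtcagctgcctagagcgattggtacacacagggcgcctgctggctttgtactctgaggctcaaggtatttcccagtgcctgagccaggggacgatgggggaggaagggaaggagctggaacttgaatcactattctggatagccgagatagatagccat

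The Areg stretch held TGACGTCA beginning at -61 from the start, GGGCGG at -52 and TATAAA at -31. Over all 32851 RefSeq promoter windows (250 bases before to 50 after a start), 1.79% held TGACGTCA, 13.6% held TATAAA and 35.7% held GGGCGG. The Vegfa stretch held GGGCGG at -72 and -62 and no ACGTG. The other annotated Vegfa start lies downstream of this one, with its window at chr17:46025114-46025413, minus strand. That window held ACGTG at -211, and 19.6% of all windows held these letters. Vegfb held 4 matches to GGGCGG, of which those at -121 and -115 abut, and Igf1 held none of the 5 motifs. TGACTCA, present in 5.2% of all windows, was in none of the members' windows. These matches describe letters in a window and not bound sites.

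Levels are given as scaled signal, the background-corrected intensity of a probe divided by the 75th percentile of its array, and differences as log2 fold changes, the arrays labelled S1pr2-/- minus wild-type. All 15 of the member probes passed the filter on dim signal, which asked for a signal well above background in both replicates of either genotype, the dimmer Fgf1 probe only through the arrays labelled S1pr2-/-. Their scaled signals ran from the floor of 0.01 (the dimmer Fgf1 probe) to 20.7 (Igf1). Levels of different probes are not ranked against each other, because probes differ in brightness for the same amount of RNA.

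**Figure D1:**
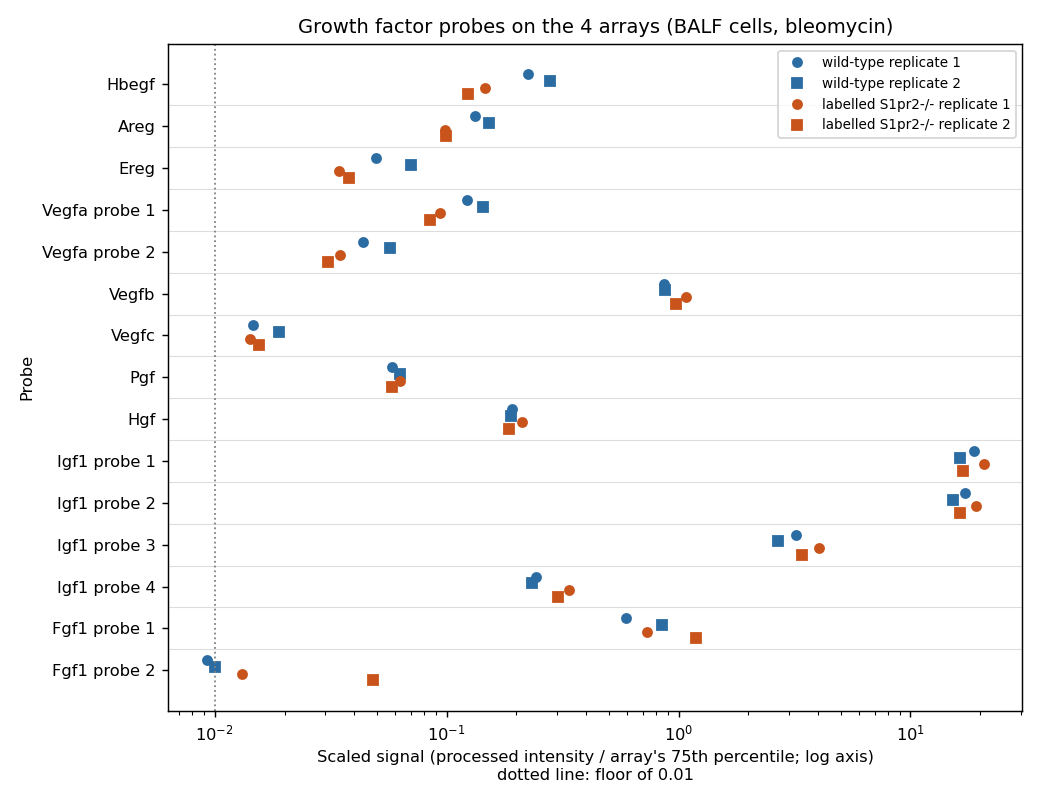
Scaled signal (x axis, log scale) of the 15 growth factor probes (y axis) on each of the 4 arrays, with wild-type arrays in blue and arrays labelled S1pr2-/- in orange, circles for replicate 1 and squares for replicate 2. The blue points lie right of both orange points for Hbegf, Areg, Ereg and both Vegfa probes, and left of them for Vegfb, for the Igf1 probes 3 and 4 and for Fgf1 probe 2.

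The 3 EGF-like ligands and Vegfa had lower signals in both samples labelled S1pr2-/- than in either wild-type sample, by 1.44-fold to 1.86-fold, and Vegfb and Igf1 leaned slightly the other way. No member passed the adjusted threshold of 0.05, and none of the 27158 probes tested did. Without adjustment, 5 of the 15 member probes had a p under 0.05 and were lower, against 5.59% of all probes tested, and 2 were higher, against 3.99%. With a 1.5-fold difference as well, there were 3 lower probes (Hbegf, Ereg and the dimmer Vegfa probe), against 1.62%, and 0 were higher, against 0.486%. Both arrays labelled S1pr2-/- lay below both wild-type arrays for 5 probes, where 21.8% of all probes did so, and above them for 4 probes, where 20% did so. The dimmer Fgf1 probe is one of those 4. Over the other 14 probes, 5 lay below and 3 above, and the median log2 fold change was 0.03, beside -0.003 over all probes tested.

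Leaving out 1 array at a time changed the size of these differences. The 5 lower probes could not turn, because both arrays labelled S1pr2-/- lay below both wild-type arrays. Log2 fold changes ranged from -1.05 to -0.74 for Hbegf, -0.63 to -0.42 for Areg and -0.96 to -0.46 for Ereg. They ranged from -0.68 to -0.45 for the brighter Vegfa probe and from -0.80 to -0.42 for the dimmer one. Each such fit leaves 1 array in a group, so only sizes are given here. The count of 5 lower probes, like that over all probes, depended on the background correction. With limma's normexp correction fitted on all spots, no member probe was lower at an unadjusted p under 0.05 (0 of 15). Among all probes tested, 127 were lower by this rule, in place of 1518. The log2 fold changes became 0.02 and 0.37 for the brighter and the dimmer Vegfa probe, 0.02 for Areg and 0.34 for Ereg. The median of all probes moved to 0.19. In that fit, the estimated background mean was -418 on S1pr2-/- replicate 1 and between 4.72 and 8.15 on the other arrays. A normexp fit without the spots flagged for uneven background, chosen after seeing this, gave 5 lower member probes and 1679 lower of all probes. Its log2 fold changes were -0.45 and -0.42 for Vegfa, -0.43 for Areg and -0.48 for Ereg.

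**Figure D2:**
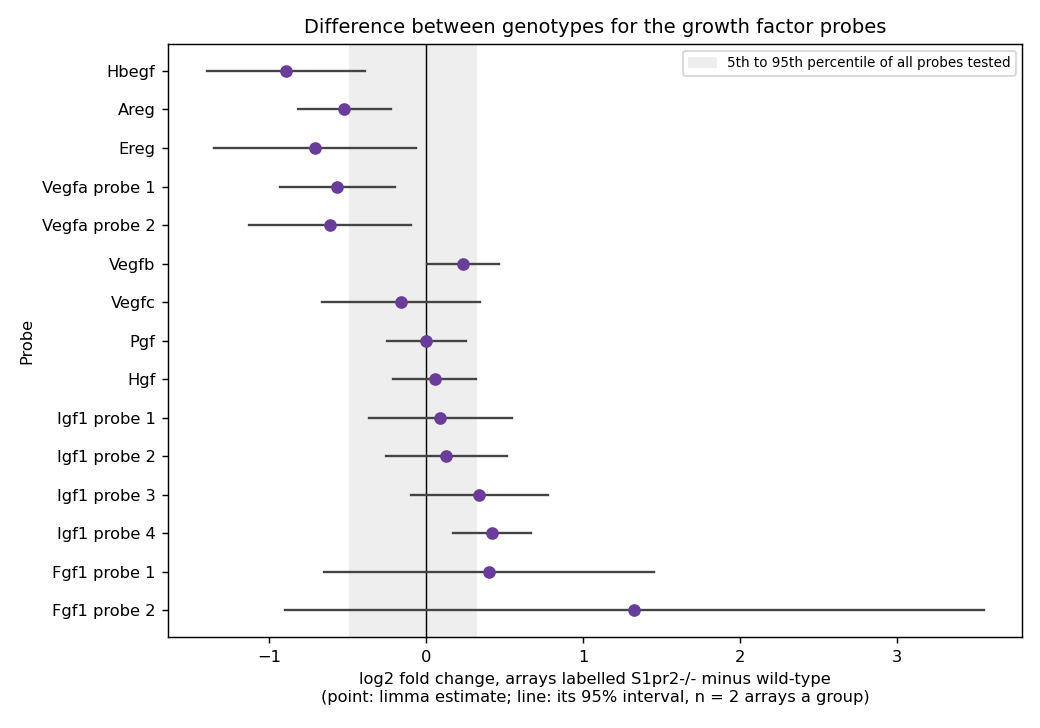
Log2 fold change (x axis, arrays labelled S1pr2-/- minus wild-type) of each growth factor probe (y axis), with the limma estimate as a point and its 95% interval as a line, and the 5th to 95th percentile of all probes tested (-0.49 to 0.32) in grey. The intervals of Hbegf, Areg, Ereg and both Vegfa probes lie below 0, those of Vegfb and Igf1 probe 4 lie above 0, and the others cross it.

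Hbegf encodes heparin-binding EGF-like growth factor, a membrane-anchored ligand of Egfr and Erbb4 on chromosome 18. Its probe (A_51_P181565) gave a scaled signal of 0.224 and 0.279 in wild-type and 0.147 and 0.123 in the samples labelled S1pr2-/-. The groups did not overlap, and this was the most negative log2 fold change of the 15 probes. It was 1.86-fold lower in those labelled S1pr2-/-, which is a log2 fold change of -0.89 (SE 0.166, 95% interval -1.40 to -0.39, limma adjusted p = 0.509). It was negative in all 16 of the alternative settings. Not all of these could turn it, since its groups did not overlap and several settings keep the same log2 values. The value was closest to 0 under the normexp correction fitted on all spots, at -0.35 with an unadjusted limma p of 0.469.

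Areg encodes amphiregulin, an Egfr ligand with a known part in tissue repair. Its probe (A_52_P482897) gave 0.132 and 0.153 in wild-type and 0.0988 and 0.0995 in the samples labelled S1pr2-/-. Both of the latter were close together and below the wild-type arrays, 1.44-fold lower at a log2 fold change of -0.52 (SE 0.0976, limma adjusted p = 0.509). Ereg encodes epiregulin, which binds Egfr and Erbb4. Its probe (A_55_P2096947) gave 0.0495 and 0.0703 in wild-type and 0.0342 and 0.0380 in the samples labelled S1pr2-/-, 1.63-fold lower. Of the 3 EGF-like ligands it had the widest gap between the wild-type arrays on the log2 scale, and the log2 fold change was -0.71 (SE 0.213, 95% interval -1.36 to -0.06, limma adjusted p = 0.518).

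Ereg and Areg are neighbours among the coding genes of chromosome 5, flanked by Epgn and Btc, which encode further EGF-like ligands. Epgn gave 0.0657 and 0.0626 in wild-type and 0.0515 and 0.0667 in the samples labelled S1pr2-/-. These groups overlapped. Btc did not exceed background clearly on any array and was not tested. Epgn and Btc are named for their place beside Areg and Ereg, not by the rule for named genes.

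Vegfa encodes the main angiogenic ligand of the family, and its probes gave similar differences. The brighter probe (A_52_P638895) gave 0.122 and 0.144 in wild-type and 0.0941 and 0.0850 in those labelled S1pr2-/-, which is a log2 fold change of -0.57 (SE 0.122, limma adjusted p = 0.509). The dimmer probe (A_52_P249424) gave 0.0437 and 0.0570, then 0.0345 and 0.0309, a log2 fold change of -0.61 (SE 0.170, limma adjusted p = 0.515). Neither probe's groups overlapped. The probes carry different Vegfa accessions and read the same RNA samples, so the dimmer one is no independent replicate.

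Vegfb encodes a ligand of Flt1 and Nrp1 that is linked to fatty acid handling. Its probe (A_52_P436628) gave 0.863 and 0.878 in wild-type and 1.07 and 0.977 in the samples labelled S1pr2-/-. Both of the latter were higher, by 1.18-fold, with a log2 fold change of 0.23 (SE 0.0762, limma adjusted p = 0.521). Vegfc encodes the ligand of Flt4 that drives lymphatic growth. It was dim, at 0.0146 and 0.0189 against 0.0142 and 0.0155, and its groups overlapped. Pgf, which encodes placental growth factor, gave 0.0580 and 0.0630 against 0.0629 and 0.0582. Its groups overlapped, with a 95% interval of -0.25 to 0.25 on the log2 scale, and the normexp correction fitted on all spots gave 0.53.

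Hgf encodes hepatocyte growth factor, a motogen and mitogen for epithelium that macrophages secrete. Its probe (A_51_P484998) gave 0.191 and 0.190 in wild-type and 0.210 and 0.186 in the samples labelled S1pr2-/-. The groups overlapped, and the log2 fold change was 0.05 (95% interval -0.21 to 0.32).

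Igf1 was read by 4 probes, all with a positive log2 fold change. Probe 1 (A_55_P2031631) gave 18.8 and 16.3 in wild-type and 20.7 and 16.8 in the samples labelled S1pr2-/-, and probe 2 (A_55_P2085984) gave 17.3 and 15.3, then 19.2 and 16.4. In both, the arrays of the genotypes overlapped, with log2 fold changes of 0.09 and 0.13. Probe 3 (A_55_P2085974) gave 3.20 and 2.69 against 4.02 and 3.42, and probe 4 (A_55_P2031636) gave 0.242 and 0.234 against 0.336 and 0.302. Both of these were higher on both arrays labelled S1pr2-/-, with log2 fold changes of 0.34 (SE 0.144, limma adjusted p = 0.555) and 0.42 (SE 0.0823, limma adjusted p = 0.509). The 4 probes carry the same accession, so the bright pair and the dimmer pair differ in size of change for one annotated transcript, and the difference between probes was not tested.

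Fgf1 encodes acidic fibroblast growth factor, which binds all FGF receptors. Its brighter probe (A_55_P2047188) gave 0.592 and 0.851 in wild-type and 0.734 and 1.19 in the samples labelled S1pr2-/-. The groups overlapped, and the log2 fold change was 0.40 (SE 0.346, limma adjusted p = 0.707). The dimmer probe (A_52_P538673) gave 0.00925 and a value just above the floor of 0.01, then 0.0131 and 0.0482. It was well above background on 1 of the wild-type arrays and on both arrays labelled S1pr2-/-, so it was tested only because of the latter, and no fold or p is given as a result. S1pr2-/- replicate 2 was far above the other 3 arrays.

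**Figure D3:**
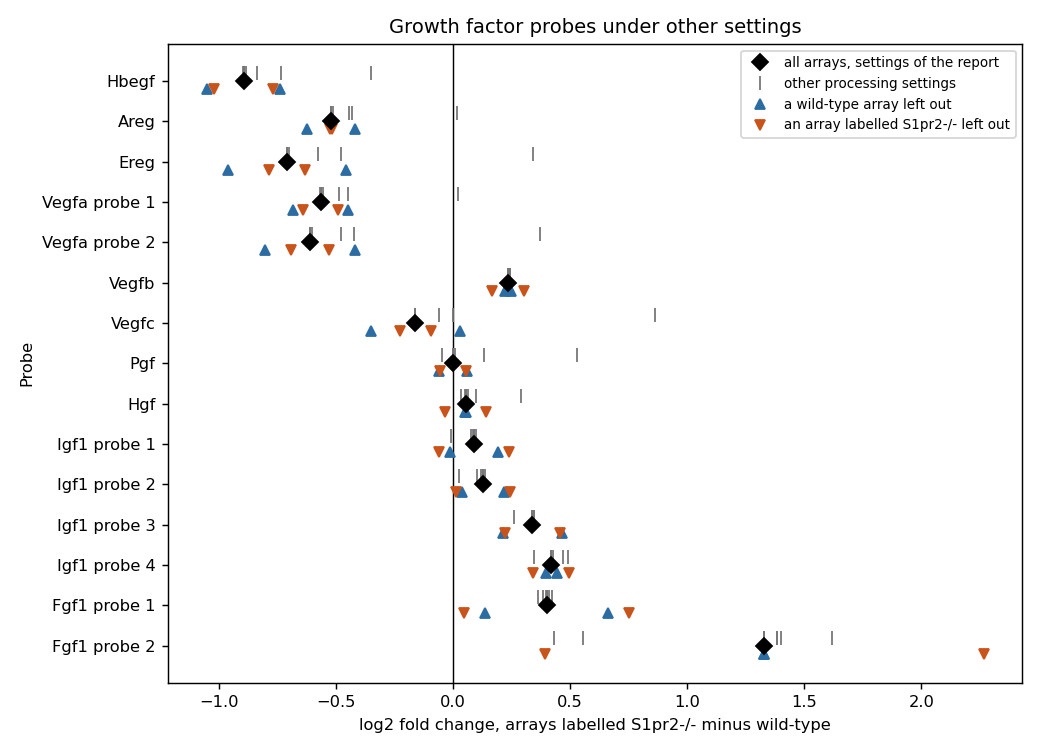
Log2 fold change (x axis) of each growth factor probe (y axis) with all arrays (black diamonds), with a wild-type array left out (blue triangles), with an array labelled S1pr2-/- left out (orange triangles) and under the other processing settings (grey ticks). Hbegf lies left of 0 under every setting, while the normexp correction fitted on all spots gives the single grey tick right of 0 for Areg, Ereg and each Vegfa probe.

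Of 17 receptors in the list, 11 were set to be described whatever their values. Flt1, a receptor for Vegfa, Vegfb and Pgf, gave 15.5 and 16.9 in wild-type and 13.8 and 15.0 in those labelled S1pr2-/-, which is a log2 fold change of -0.18 (limma adjusted p = 0.586). Kdr, the main signaling receptor for Vegfa, gave overlapping groups on its brighter probe, with a log2 fold change of 0.07, and the dimmer probe gave -0.44, so its probes disagreed in sign. Flt4, the receptor for Vegfc, did not exceed background clearly on any array. Of 4 endothelial markers, Tek and Cldn5 were likewise not above background on any array, while Pecam1, which leukocytes also express, and Cdh5 were well above it on all arrays. Pecam1 gave 0.0924 and 0.0887 against 0.0716 and 0.0619, a log2 fold change of -0.44 (limma adjusted p = 0.509). Cdh5 gave overlapping groups close to the floor, at 0.0131 and 0.00786 against 0.0130 and 0.00809. It was at the floor of 0.01 on replicate 2 of each genotype. The summed signal of this list lay between 0.0773 and 0.113.

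Among the coreceptors, Nrp1 had a log2 fold change of 0.32 and the brighter Nrp2 probe had one of -0.02. Met, the Hgf receptor, was at 0.0416 and 0.0453 against 0.0439 and 0.0454, with overlapping groups. Egfr, the receptor shared by Hbegf, Areg and Ereg, gave log2 fold changes of -0.35 (brightest probe) and 0.03 (the next one), and Erbb2, its coreceptor, gave 0.08. Erbb3, a neuregulin receptor, and Erbb4, which is not among those 11, did not exceed background clearly on any array. Fgfr1, a receptor for Fgf1, was 1.02 and 2.24 in wild-type and 0.798 and 0.597 in the samples labelled S1pr2-/- on its brightest probe, a log2 fold change of -1.13 with a wide error (SE 0.478, limma adjusted p = 0.554). The other Fgfr1 probes gave -0.04 and -0.66. Fgfr2, Fgfr3, Fgfr4, Insr and Igf2r, also outside the 11, had log2 fold changes between -0.23 and 0.18 on their brightest probes. The Fgfr4 probes disagreed in sign, at -0.23 with overlapping groups and 0.38 (limma adjusted p = 0.509) on the dimmer one. The Insr probes gave 0.18, 0.10 and -0.02. Igf1r, the receptor for Igf1, gave 0.315 and 0.446 against 0.292 and 0.178, a log2 fold change of -0.72 (SE 0.346, limma adjusted p = 0.584).

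Among genes that release these ligands from the membrane, Adam10 and Adam17, the proteases that release EGF-like ligands, had log2 fold changes of 0.07 and 0.09, and Rhbdf2, which brings Adam17 to the cell surface, had -0.03. For all 3 genes the groups overlapped. Adam8, another membrane protease of this list, which was picked out after its values were seen, gave 9.58 and 12.0 against 7.41 and 3.75, a log2 fold change of -1.02 with a wide error (SE 0.406, limma adjusted p = 0.544). Of the other listed genes, 3 had an unadjusted p under 0.05 together with a 1.5-fold difference on the brightest probe, all of them lower, where 1.62% of all probes were lower and 0.486% higher by this rule. Nrg1, which encodes neuregulin 1, another EGF-like ligand, gave 0.277 and 0.345 against 0.156 and 0.149, a log2 fold change of -1.02 (SE 0.137, limma adjusted p = 0.509). Lrig1, an inhibitor of EGF receptors, gave 0.109 and 0.0962 against 0.0606 and 0.0472, and its probes gave -0.94 and -0.67. Ddit4, a stress and hypoxia response gene, gave 4.18 and 4.13 against 2.32 and 2.41, a log2 fold change of -0.81 (SE 0.0580, limma adjusted p = 0.509). Under the normexp correction fitted on all spots these became -0.05 for Lrig1, -0.55 for Nrg1 and -0.87 for Ddit4, and of these only Ddit4 had an unadjusted p under 0.05.

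Over all 5 lists of receptors, other ligands, activating and shedding proteins, binding proteins with inhibitors, and the hypoxia pathway, 98 of 117 probes were tested and 0 passed the adjusted threshold. Of these 98, 9 (9.18%) were lower and 8 (8.16%) higher at an unadjusted p under 0.05, where 5.59% and 3.99% of all probes were. The median log2 fold change of the brightest probes was -0.05 for 14 receptors, 0.14 for 12 other ligands, 0.06 for 14 activating and shedding proteins, -0.21 for 11 binding proteins and inhibitors and -0.05 for 18 hypoxia pathway genes. In the hypoxia list, which surrounds Vegfa, 4 of 18 genes (22.2%) were lower and 2 (11.1%) higher at an unadjusted p under 0.05, beside the same 5.59% and 3.99%.

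**Figure D4:**
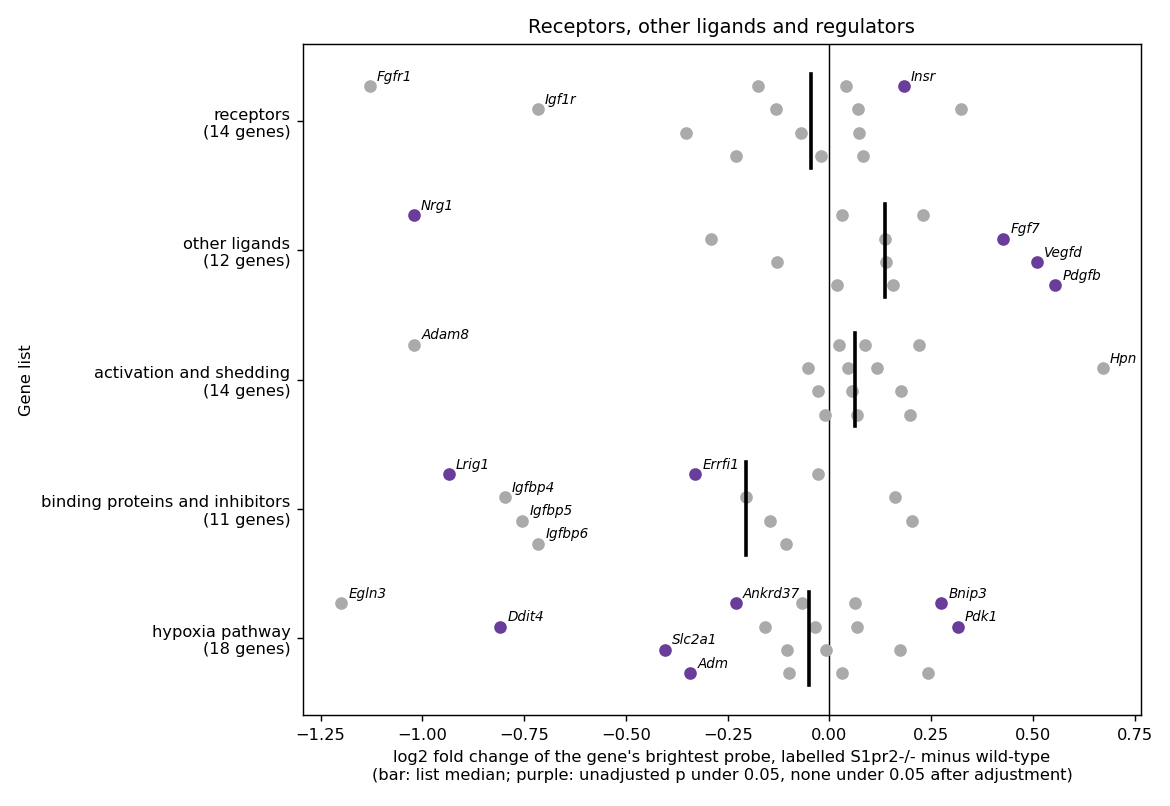
Log2 fold change (x axis) of the brightest probe of each tested gene in the lists of receptors, other ligands, activation and shedding, binding proteins and inhibitors, and hypoxia pathway (y axis), with the list median as a black bar and genes at an unadjusted p under 0.05 in purple. Medians lie between -0.21 and 0.14, and Nrg1, Lrig1 and Ddit4 are the purple points past 1.5-fold.

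Markers of other cell types differed between the groups beside these results. In bulk RNA, fewer cells of a type and less RNA per cell cannot be told apart. Beside the counts of genes given here, 21.8% of all probes tested were lower on both arrays labelled S1pr2-/- and 20% were higher on both. Eosinophil markers had a median log2 fold change of -4.52. That median is the value of Epx and is a bound, since Epx was at the floor of 0.01 on S1pr2-/- replicate 1. Alveolar macrophage markers had a median log2 fold change of -0.04, and their summed scaled signal was 652 and 734 in wild-type and 623 and 721 in the samples labelled S1pr2-/-, with overlapping groups. Markers of type 2 innate lymphoid and T helper 2 cells summed to 5.81 and 9.10 against 4.91 and 3.35. Their median was -0.81, 5 of 7 genes were lower on both arrays labelled S1pr2-/-, and Il7r and Rora overlapped. Of the 5, Il13 was at the floor of 0.01 on both arrays labelled S1pr2-/- and well above background on only 1 of them. Il13 was tested only because of wild-type, so its difference is a bound. Neutrophil markers summed to 82.4 and 92.4 against 66.6 and 57.4, with a median of -0.44. Of the 6 tested, 4 were lower on both, and S100a8 and Camp overlapped. Fibroblast markers summed to 0.260 and 0.255 against 0.659 and 0.353, with a median of 0.76. Of 5 genes, 4 were higher on both, and Pdgfra overlapped. Epithelial markers summed to 30.5 and 33.6 against 24.5 and 40.3 with a median log2 fold change of -0.34, and 5 of the 7 genes were lower on both arrays labelled S1pr2-/-. Monocyte-derived macrophage markers summed to 157 and 78.4 against 164 and 112 with a median of 0.43. Of the 6 tested, 2 (Cx3cr1 and C1qa) were higher on both, beside 20% of all probes tested. The median was -0.08 for general macrophage markers, -0.32 for T cells, -0.85 for B cells and -0.42 for NK cells. It was 0.04 for dendritic cells and 0.49 for erythroid cells. The B cell sums overlapped, at 1.59 and 0.491 against 0.623 and 0.421, and 0 of the 4 genes were lower on both. No mast cell or basophil marker passed the filter (0 of 4). The part of these other cells in the lower signals of Hbegf, Areg, Ereg and Vegfa and in the higher ones of Igf1 probes 3 and 4 was not tested.

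**Figure D5:**
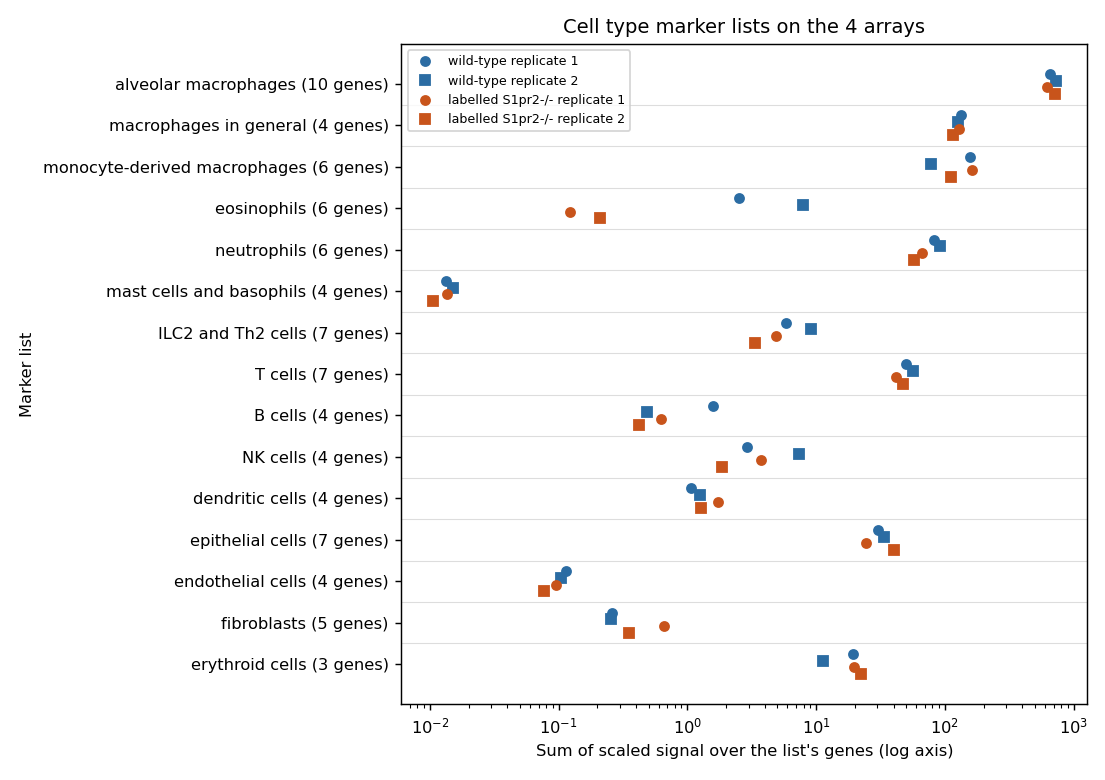
Scaled signal summed over the genes of each cell type marker list (x axis, log scale; y axis, list) on the 4 arrays, with wild-type arrays in blue and arrays labelled S1pr2-/- in orange. The alveolar macrophage sums overlap, between 623 and 734, while the eosinophil sums are separated, at 2.54 and 7.96 against 0.123 and 0.211.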

How the data were processed

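RNA of BALF cells was hybridized to 4 one-color arrays, 2 per genotype, on 1 slide with 1 scan, so slide and scan could not be tested as batches. The authors deposited the intensity of each spot, corrected for background by Feature Extraction (version 10.7.3.1 in the submitters' processing notes), and a table of normalized log2 values, which the authors deposited and which was used only as an alternative. Processed intensities were scaled to the 75th percentile of the non-control spots of their array, floored at 0.01 and put on the log2 scale. Outlier-flagged spots were dropped, and the remaining spots of a probe were averaged. Of 39429 probes, 69.6% were named through the RefSeq table of GRCm38.p6, and no probe coordinates are given, since the array was designed on another build. The 27158 probes with values on all arrays and a signal well above background in both replicates of either genotype were fitted with limma 3.58.1 in R 4.3.3 (lmFit, eBayes; S1pr2-/- minus wild-type) with Benjamini-Hochberg adjustment. The fit was tested on simulated data.

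With 2 arrays per group, the smallest p of an exact two-sided permutation test is 0.333, and this number of arrays sets the precision. The members and gene lists were chosen with earlier results of these data known. All members, 11 receptors, 3 shedding genes, listed genes at an unadjusted p under 0.05 with 1.5-fold, the marker lists of alveolar macrophages and eosinophils and S1pr2 are named; Adam8, the other 6 receptors and the other marker lists were named after their values were seen. Brightest probes came first. The alternatives were quantile normalization, the percentile over detected probes, normexp (offset 50), the authors' log2 table, no filter, no floor, detection on all arrays, a trended variance, keeping flagged spots, the replicate block, the methods' t-test and leaving out each array. A normexp fit without spots of uneven background was added after the planned one was seen.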

Additional observations from a re-analysis of the deposited data

How the results depend on the processing

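The design has 2 arrays a group, and the Vegfc probe and the dimmer Fgf1 probe lie close to background. Of 479 values of 30 single probes under 16 settings, 454 kept their direction and 25 turned, and 0 probes passed an adjusted p of 0.05 in any setting.

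The planned normexp correction, fitted on all spots, turned 8 values: 0.0232 and 0.37 for Vegfa, 0.86 for Vegfc, 0.0171 for Areg, 0.34 for Ereg, -0.0086 for Igf1 probe 1, -0.0032 for Kdr and 0.56 for Egfr. Under it, 127 probes of all were lower and 159 higher at an unadjusted p under 0.05, and 95 were lower with 1.5-fold as well. For growth factor probes it gave 0 lower and 1 higher, and with 1.5-fold 0 lower and 1 higher. For receptor and pathway probes it gave 3 lower and 0 higher, and 2 lower with 1.5-fold. On S1pr2-/- replicate 1, the lowest signal minus background among all spots was -9354, on a spot flagged for uneven background, while the lowest among the measuring probes was 3.5. A further normexp fit that left out the spots with such a flag (95 on that array) was chosen after these values were seen, and the fitted background mean there was then 6.79. It turned Pgf (-0.0468) and Met (-0.0176), and Vegfa, Areg and Ereg were negative. It gave 1 lower and 1 higher probe of all at an adjusted p under 0.05, and 74 higher with 1.5-fold. It gave 1 growth factor probe lower with 1.5-fold, and for receptor and pathway probes 14 lower and 4 higher, and 8 lower and 1 higher with 1.5-fold.

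Counts at an unadjusted p under 0.05 moved under other settings. Quantile normalization gave 1750 higher of all probes and 212 higher with 1.5-fold, 3 growth factor probes lower, 1 higher and 1 lower with 1.5-fold, and 2 receptor and pathway probes higher with 1.5-fold. The percentile over detected probes gave 1652 higher of all, 204 lower and 63 higher with 1.5-fold, 3 growth factor probes lower, 1 higher and 1 lower with 1.5-fold, and a Vegfc value of 0. The authors' log2 table gave 237 higher with 1.5-fold of all, and no floor gave 238. Each of these, and detection on all arrays, gave 1 growth factor probe higher and 1 receptor and pathway probe higher with 1.5-fold. Pgf was -0.00017 in the authors' table. No filter gave 244 lower with 1.5-fold of all, 3 growth factor probes lower, 1 higher and 1 lower with 1.5-fold, and 5 receptor and pathway probes higher. Keeping flags turned Met to -0.0197. The methods' t-test gave 1065 lower and 995 higher at their threshold of p, 152 lower and 58 higher with 1.5-fold, and 0 after Benjamini-Hochberg. For growth factor probes it gave 2 lower, 1 higher and 1 lower with 1.5-fold, and for receptor and pathway probes 4 higher. Except where stated above, the cause of these moves was not tested.

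Leaving out 1 array, with its lone partner assumed to vary like the others, gave 627 to 1336 higher of all probes, 342 to 729 lower with 1.5-fold and 153 to 351 higher with 1.5-fold. Growth factor probes ranged from 0 to 5 lower, 0 to 3 higher, 0 to 5 lower with 1.5-fold and 0 to 1 higher with 1.5-fold. Receptor and pathway probes ranged from 5 to 11 lower, 2 to 7 higher, 3 to 7 lower with 1.5-fold and 0 to 3 higher with 1.5-fold. Values that turned ranged from -0.35 to 0.0279 for Vegfc, -0.0583 to 0.0604 for Pgf, -0.0344 to 0.14 for Hgf, -0.0579 to 0.24 for Igf1 probe 1, -0.0909 to 0.23 for Kdr, -0.0818 to 0.0422 for Nrp2, -0.0232 to 0.11 for Met and -0.0150 to 0.18 for Erbb2.

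Replicate numbers are shared between genotypes, but the deviations of same-numbered arrays correlated at 0.187 and the labels tie the numbers to nothing else. With the replicate block, 4 growth factor probes were lower and 3 higher at an unadjusted p under 0.05, and 5 receptor and pathway probes were higher in place of 8.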
